A study of Mus musculus with 12 samples.

Results

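The brush border disaccharidases and peptidases are 9 genes of the small intestine, Sis, Lct, Mgam and Treh for the sugar-cleaving enzymes and Anpep, Enpep, Dpp4, Mme and Ace for the peptidases. They were chosen by name, and each of the 9 matched 1 of the 34245 rows of the count table. RNA-seq had been carried out on Lgr5-positive intestinal stem cells (ISC) and on adult enterocytes (AE) from male C57BL/6 mice that all carried the Lgr5-EGFP-IRES-creERT2 knock-in, which places EGFP and a tamoxifen-inducible Cre under the control of Lgr5. Young mice were middle-aged, about 8 months old, and aged mice were about 27 months old. ISC were sorted from crypts as GFP-high, DAPI-negative cells, with no staining for Epcam, CD45 or CD31, and AE were sorted from villi as Epcam-high cells negative for CD31, CD45 and DAPI. There were 3 libraries in each of the 4 groups. The study's methods list 3 mice of each age for RNA-seq, and which library came from which mouse is not given in the sources used here. Libraries are named by the number in their column names, young 1, 2 and 3 and aged 1, 3 and 5, and the numbers carry no order.

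Enterocytes finish the digestion of sugars and proteins on the microvilli that face the gut lumen, the brush border, where these enzymes are anchored with their catalytic parts outside the cell. Disaccharidases split sucrose, starch fragments, lactose or trehalose into hexoses that transporters take up, and peptidases trim oligopeptides to amino acids and short peptides. The enzymes are used as markers of differentiated villus enterocytes, and their transcripts appear as cells leave the crypt. The study itself used Sis as a marker of its AE.

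Library totals lay between 11893817 and 15473227 counts except for aged ISC 1, aged ISC 5 and young AE 3, which held 26796461, 16475043 and 110794420 counts. Stem cell markers marked the sort: the summed level of 10 of them was 5976 to 8454 CPM in ISC and 135 to 667 CPM in AE, and Lgr5 fell from a mean of 98.7 CPM in young ISC to 2.44 CPM in young AE. CPM are read counts per 1000000 counts of a library, with library totals scaled by TMM, which sets libraries to a common level over most genes. In sorted bulk samples, fewer cells of a type and less RNA of that type per cell cannot be told apart. The lowest count of any of the 9 genes in a library was 243, for Treh in aged ISC 5. Counting error was thus in general small beside the spread between libraries, though not beside every gap between 2 libraries.

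The 250 bases before the RefSeq start of the 4 disaccharidase genes are shown because their matches to binding motifs of intestinal transcription factors were not alike. All 9 genes rose towards AE, so the rise does not set these 4 apart. Sequences are from RefSeq on GRCm38.p6, read 5′ to 3′ on the strand of the gene, and all 9 genes matched an entry. Capitals mark GTTAAT (a half-site of HNF1 factors), GATAA (the core of GATA factors), TTTATG (the core of CDX factors) and CAAAGTCCA (a site of HNF4 factors), each searched on both strands, and no 2 matches overlapped.
Sis (chr3:72967864-72968113, minus strand): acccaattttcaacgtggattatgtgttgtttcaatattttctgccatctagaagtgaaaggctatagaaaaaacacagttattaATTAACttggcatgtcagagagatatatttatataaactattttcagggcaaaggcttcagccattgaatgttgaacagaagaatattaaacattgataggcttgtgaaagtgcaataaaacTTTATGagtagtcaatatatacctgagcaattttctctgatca
Lct (chr1:128328319-128328568, minus strand): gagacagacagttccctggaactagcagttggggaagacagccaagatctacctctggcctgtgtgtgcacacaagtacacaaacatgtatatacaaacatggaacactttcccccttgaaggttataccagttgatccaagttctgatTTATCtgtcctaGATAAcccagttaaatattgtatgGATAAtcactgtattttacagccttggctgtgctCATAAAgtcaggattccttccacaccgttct
Mgam (chr6:40628581-40628830, plus strand): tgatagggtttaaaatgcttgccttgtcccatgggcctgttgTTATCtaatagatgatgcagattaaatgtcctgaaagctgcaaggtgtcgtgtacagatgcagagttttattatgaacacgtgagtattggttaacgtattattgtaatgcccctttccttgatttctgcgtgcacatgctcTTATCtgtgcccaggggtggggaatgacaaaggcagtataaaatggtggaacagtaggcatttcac
Treh (chr9:44672983-44673232, plus strand): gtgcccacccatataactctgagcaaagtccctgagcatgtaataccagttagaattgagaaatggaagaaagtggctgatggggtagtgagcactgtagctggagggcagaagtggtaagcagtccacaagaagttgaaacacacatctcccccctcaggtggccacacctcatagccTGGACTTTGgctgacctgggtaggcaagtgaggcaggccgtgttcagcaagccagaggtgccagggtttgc
Counted from -1 for the last base before the start, the Sis window held GTTAAT on the opposite strand at -165 and TTTATG at -43. The Lct window held GATAA at -101, -89 and -65 and TTTATG at -31. In Mgam, GATAA stood at -208 and -66, and in Treh the single match was CAAAGTCCA at -71. Of the 5 peptidase genes, Dpp4 held GATAA at -31 and Enpep at -70, and none of the motifs was found in the windows of Anpep, Mme and Ace. Over all 32536 promoters, 6.47% held GTTAAT, 22.5% GATAA, 10.8% TTTATG and 0.387% CAAAGTCCA, against 1, 4, 2 and 1 of the 9 genes. These are matches of letters and not measured sites. The RefSeq starts of Anpep and Mme lay 12849 and 53674 bases inside the gene as the count table gives it.

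All 9 genes are protein-coding and lie, on GRCm38, on 7 chromosomes, with Sis at chr3:72888557-72967863, Mgam at chr6:40628831-40769123, Lct at chr1:128284756-128328318 and Treh at chr9:44673233-44686305 among the disaccharidases. The peptidase genes are Anpep at chr7:79821803-79861059, Enpep at chr3:129269175-129332720, Dpp4 at chr2:62330073-62412231, Mme at chr3:63241537-63386030 and Ace at chr11:105967945-105989964, and counts cover their exons. All 9 genes were detected in all 12 libraries. Per length, as CPM per kilobase of exon (RPKM), Anpep, the aminopeptidase N that removes neutral residues from the amino end, had the highest mean level in each of the 4 groups. It reached 2533 ± 553 RPKM (SD, n = 3) in young AE and 3033 ± 126 RPKM in aged AE, and its AE range did not overlap that of Sis, the next gene. Sucrase-isomaltase, encoded by Sis, followed with 807 ± 303 and 993 ± 7.70 RPKM. In both AE groups the order of mean RPKM then ran Ace, Lct, Treh, Enpep and Mgam, and from Sis to Mgam every gene's range overlapped that of the next. Dpp4 at 200 ± 25.6 RPKM and Mme at 121 ± 30.6 RPKM stood below these in young AE without overlap, and the same was true in aged AE, where they had 237 ± 15.7 and 142 ± 24.8 RPKM. In ISC the order of means differed: Mgam stood next after Anpep or Sis, at 57.0 ± 8.45 RPKM in young and 61.9 ± 34.0 RPKM in aged ISC, while Lct stood next to last, at 21.4 ± 7.41 and 6.14 ± 3.92 RPKM. Most of these ranks were not resolved. In young ISC every gene's range after Anpep overlapped that of the next. In aged ISC the ranges of all neighbours overlapped, Anpep and Mgam included, except those of Dpp4 and Ace. Together the 9 genes took 2.23% to 3.24% of the counts of an AE library and 0.111% to 0.408% of those of an ISC library.

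**Figure D1:**
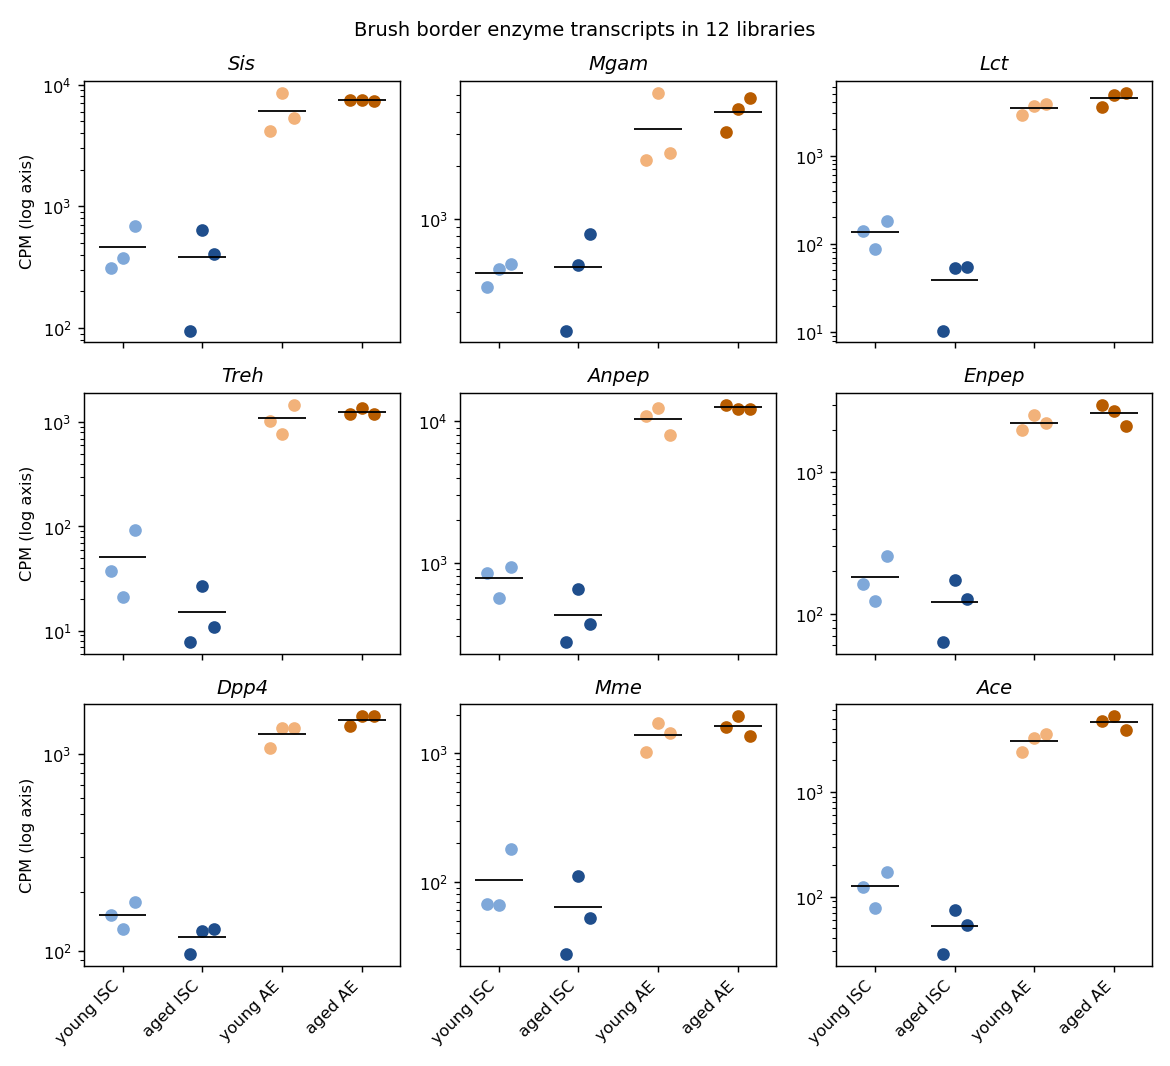
CPM of the 9 brush border enzyme genes on log axes, 1 panel a gene, with 1 point a library (3 in each of young ISC, aged ISC, young AE and aged AE) and a line at the mean of each group. Every AE point lies above every ISC point of its gene, and aged ISC 1 is the lowest ISC library for each of the 9 genes.

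AE were first compared with ISC, the villus end against the crypt end of differentiation, at each age. All 9 genes rose in AE at both ages. Over all genes, 27.7% of 16681 tested were called higher in young AE and 30% of 15855 in aged AE, where a call is a false discovery rate (FDR) of less than 0.05 from the quasi-likelihood test of edgeR. In both ages the AE and ISC ranges of all 9 genes were apart with AE higher, which held for 32.3% of all genes tested in young and 33.4% in aged mice. The median log2 fold change over the 9 genes was 3.73 in young and 4.62 in aged mice, where the median over all genes tested was 0.15 and -0.13. The FDR of the 9 genes lay between 1.18e-04 and 8.91e-04 in young mice and between 1.11e-06 and 2.89e-04 in aged mice.

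Among the disaccharidases, Lct, the lactase that is high at suckling and declines after weaning, and Treh, which encodes trehalase, had the highest log2 fold changes, and in young mice these 2 genes and the peptidase gene Ace differed by less than their errors. The level of Lct was 141, 88.2 and 183 CPM in the young ISC libraries 1, 2 and 3 and 2861, 3676 and 3890 CPM in the young AE libraries of the same numbers. In aged mice it was 10.4, 52.6 and 55.0 CPM in ISC 1, 3 and 5 and 3527, 4813 and 5131 CPM in AE. The groups were far apart at both ages, with a log2 fold change of 4.66 ± 0.36 (SE, 25.3-fold) in young and 6.76 ± 0.65 (109-fold) in aged mice, and aged ISC 1 was the lowest library. Treh stood at 37.0, 21.0 and 93.3 CPM in young ISC and at 1032, 771 and 1482 CPM in young AE. In aged mice Treh was at 7.72, 26.7 and 10.8 CPM in ISC and at 1199, 1362 and 1196 CPM in AE. Young ISC 3 and aged ISC 3 were the highest ISC libraries of their age, and the log2 fold changes were 4.44 ± 0.59 and 6.31 ± 0.50.

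Sis had 309, 375 and 692 CPM in young ISC and 4179, 8545 and 5356 CPM in young AE. Its aged ISC libraries spread more, with 95.2, 643 and 402 CPM, whereas aged AE were nearly equal at 7411, 7472 and 7357 CPM. Sis rose by 3.72 ± 0.45 on the log2 scale in young mice (13.1-fold) and by 4.21 ± 0.61 in aged mice (18.5-fold). Mgam, the maltase-glucoamylase that works on starch fragments beside sucrase-isomaltase, had the smallest log2 fold changes of the 9, 2.69 ± 0.39 in young and 2.83 ± 0.44 in aged mice. It had 414, 520 and 555 CPM in young ISC and 235, 554 and 827 CPM in aged ISC, the highest mean share of the AE level in ISC of any of the 9 genes. The range of this share over libraries overlapped that of Dpp4 at both ages. In young mice the log2 fold change of Mgam differed from that of Dpp4, 3.03 ± 0.23, by less than the SE of Mgam. Its AE levels were 2140, 5138 and 2350 CPM in young and 3114, 4185 and 4787 CPM in aged mice, with young AE 2 well above the other young AE libraries.

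The aminopeptidases Anpep and Enpep, the second a glutamyl aminopeptidase that acts on acidic residues, rose to a similar extent. Anpep had 844, 561 and 926 CPM in young ISC and 272, 645 and 367 CPM in aged ISC, against 10998, 12452 and 7972 CPM in young AE and 13145, 12223 and 12262 CPM in aged AE. This was a log2 fold change of 3.75 ± 0.37 in young and 4.80 ± 0.41 in aged mice. Enpep ranged from 123 to 257 CPM in young ISC, 63.1 to 173 CPM in aged ISC, 1978 to 2535 CPM in young AE and 2132 to 2998 CPM in aged AE, and its log2 fold changes were 3.63 ± 0.34 and 4.35 ± 0.40.

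Dpp4, which removes dipeptides that end in proline or alanine and inactivates incretin hormones, had the smallest gradient of the peptidases. It had 153, 131 and 179 CPM in young ISC and 97.1, 127 and 130 CPM in aged ISC, and 1074, 1353 and 1356 CPM in young AE and 1383, 1557 and 1554 CPM in aged AE. Spread within each Dpp4 group was small, and the log2 fold changes were 3.03 ± 0.23 in young (8.19-fold) and 3.59 ± 0.23 in aged mice. Mme, the endopeptidase neprilysin, ranged from 66.4 to 180 CPM in young ISC, 27.6 to 111 CPM in aged ISC, 1022 to 1724 CPM in young AE and 1374 to 1943 CPM in aged AE, with log2 fold changes of 3.73 ± 0.47 and 4.62 ± 0.49. Ace, the carboxypeptidase that forms angiotensin II and also trims dietary peptides, had a gradient near that of Lct. It had 124, 77.7 and 173 CPM in young ISC and 28.3, 73.7 and 53.9 CPM in aged ISC, and 2391, 3231 and 3537 CPM in young AE and 4701, 5260 and 3883 CPM in aged AE. The log2 fold change of Ace was 4.61 ± 0.38 (24.4-fold) in young and 6.40 ± 0.43 (84.5-fold) in aged mice.

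**Figure D2:**
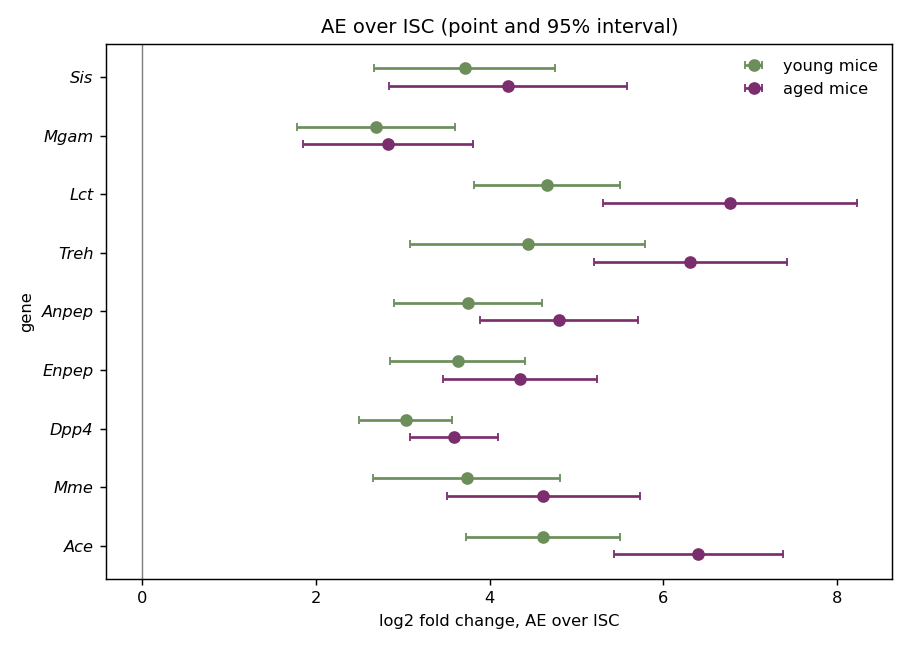
Log2 fold change of AE over ISC for the 9 genes from edgeR, in young and in aged mice (3 AE against 3 ISC libraries each), as points with 95% intervals. All intervals lie above 0, and Lct, Treh and Ace have the highest values at both ages.

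Leaving out a library moved some of these folds by more than 1.5 times without changing a call. Without young ISC 3 the young log2 fold changes of Treh and Mme were 5.24 and 4.38, and Treh then stood above Lct at 4.92, and without young AE 2 that of Mgam was 2.08. Without aged ISC 3 the aged log2 fold changes of Sis, Treh and Mme were 4.83, 7.01 and 5.29. With libraries scaled by their totals alone, AE over ISC fell by 0.70 in young and by 0.78 in aged mice in the median of all genes. The share of calls that were higher then went from 52.2% to 26.5% for the young comparison and from 46.8% to 24.2% for the aged one, and all 9 genes were still called higher, with log2 fold changes of 2.01 to 3.96 (young) and 2.03 to 5.98 (aged).

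Enterocyte markers moved with the 9 genes. All 15 of them were called higher in AE at both ages, and their summed level was 4232 to 10265 CPM in young ISC, 2462 to 5681 CPM in aged ISC, 67462 to 89717 CPM in young AE and 83077 to 103733 CPM in aged AE. The summed level of the 9 enzymes came to 31.5% to 64.5% of the enterocyte marker sum in the 6 ISC libraries and to 33.0% to 57.3% of it in the 6 AE libraries, so the ranges overlapped. Goblet cell markers were also higher in AE, with 6 of 6 called at both ages and sums of 23520 to 45632 CPM in AE and 1372 to 2169 CPM in ISC. Markers of T cells and intraepithelial lymphocytes summed to 18.3 to 57.9 CPM in AE, 9.20 to 22.9 CPM in young ISC and 3.06 to 4.91 CPM in aged ISC. Dpp4, Anpep and Mme are also known from leukocytes, and Ace from endothelium. Myeloid markers summed to at most 24.5 CPM and endothelial and stromal markers to at most 9.40 CPM in any library. Cdh5 and S100a8 were at 0 counts in all 12 libraries. Cx3cr1 and Fcgr3 were at 0 in the 6 ISC libraries and in 5 of 6 AE libraries. The most abundant markers of these lists, myeloid Itgam and Cd68 and stromal or endothelial Pdgfrb and Pecam1, had counts in all 12 libraries. Itgam had means of 7.43 and 10.9 CPM in young and aged ISC and 12.7 and 17.5 CPM in young and aged AE. Pecam1 had means of 0.230 and 0.383 CPM in young and aged ISC and 1.33 and 1.73 CPM in young and aged AE.

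Other genes of digestion and uptake were counted in lists. Of 20 other brush border hydrolases, 17 were tested and 15 rose in young AE and 16 in aged AE. Among them were the peptidase Naaladl1, at 3.59 ± 0.50 in young and 4.73 ± 0.41 in aged mice on the log2 scale, and the intestinal alkaline phosphatase Alpi at 3.68 ± 0.60 and 4.66 ± 0.67. Of 14 genes tested for the uptake of sugars, peptides and amino acids, most of them carriers, 12 rose at each age. Among them were the sodium-glucose cotransporter Slc5a1 at 3.46 ± 0.45 and 4.02 ± 0.34 and the peptide transporter Slc15a1 at 4.81 ± 0.34 and 6.92 ± 0.42. The neutral amino acid carrier Slc6a19 was at 4.57 ± 0.46 and 6.27 ± 0.42. Slc1a1, a glutamate carrier, was called lower in aged AE, at -1.15, and was named after its value was seen.

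Enzymes inside the cell handle what the carriers bring in. Of 11 genes of hexose and dipeptide metabolism tested, 9 rose at each age, with a median log2 fold change of 2.32 in young and 2.36 in aged mice. Among them, the cytosolic peptidases Cndp2 and Pepd rose by 3.46 ± 0.28 and 3.39 ± 0.25 on the log2 scale in young mice. Galactokinase, Galk1, fell by 0.81 in young AE and was named after its value was seen. Of 16 transcription factors known to act on brush border enzyme genes, 6 rose and 1 fell in young AE, and 5 rose and 5 fell in aged AE. Over all genes tested, 25.4% were called lower in young AE and 34.1% in aged AE, beside the 27.7% and 30% called higher. Of the 3 most abundant of these factors, Hnf4a had log2 fold changes of -0.19 ± 0.23 and -0.17 ± 0.21 and Cdx2 of -0.20 ± 0.18 and -0.35 ± 0.18, none of them called. Elf3 was at -0.52 ± 0.26 in young AE, which was not called, and fell by 1.04 ± 0.19 in aged AE. Named after their values were seen, Hnf4g, Prdm1 and Klf4 rose at both ages, with log2 fold changes in young mice of 2.44, 3.81 and 3.48.

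The second question was how the 9 genes differed with age. In ISC, 8 of the 9 genes had a lower fitted level in aged than in young mice, and none passed the test, with an FDR of 1.00 for each. edgeR called 0% of the 15552 genes tested, and Ddr2 had the lowest FDR, 0.177. Mgam was the exception, at a log2 fold change of 0.13 ± 0.38, and Sis turned positive when young ISC 3 or aged ISC 1 was left out. The median over the 9 genes was -0.71 against 0.01 over all genes. At an unadjusted P under 0.05 there were 4 of the 9 genes, Lct, Treh, Anpep and Ace, against 4.47% of all genes, and 3 of the 9 genes, Lct, Dpp4 and Ace, had all aged libraries below all young ones, against 4.44% of all genes. For Dpp4 the lowest young and the highest aged library were both close to 130 CPM, nearer to each other than counting error, and with libraries scaled by their totals alone Dpp4 overlapped, while Lct and Ace were still apart. DESeq2 called 59 genes in this comparison and none of the 9.

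Lct was at 88.2 to 183 CPM in young ISC and at 10.4 to 55.0 CPM in aged ISC. Its log2 fold change was -1.80 ± 0.55, with a 95% interval from -3.04 to -0.55 (edgeR FDR 1.00). Ace was at 77.7 to 173 CPM in young and 28.3 to 73.7 CPM in aged ISC. This was a log2 fold change of -1.26 ± 0.38 with an interval from -2.11 to -0.40 (edgeR FDR 1.00). The FDR of Ace was 0.101 in DESeq2. Treh was at -1.74 ± 0.60, with aged ISC 3, at 26.7 CPM, above young ISC 2, at 21.0 CPM. Anpep was at -0.85 ± 0.32 and Dpp4 at -0.37 ± 0.18. For Sis, Mme and Enpep the log2 fold changes were -0.26, -0.71 and -0.56, and their intervals included 0.

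These values in ISC depended on single libraries. Aged ISC 1 was the lowest ISC library for each of the 9 genes and young ISC 3 was the highest of the young ISC libraries for each of them. Summed, the 9 genes had 2251, 1963 and 3236 CPM in young ISC and 837, 2406 and 2026 CPM in aged ISC, so the groups overlapped. The median log2 fold change over the 9 genes was -0.35 without aged ISC 1, -0.25 without young ISC 3 and -1.28 without aged ISC 3. Treh was at -0.94 without young ISC 3 and -2.45 without aged ISC 3, Mme at -0.06 and -1.38, and Sis at 0.16 and -0.88. Enterocyte markers moved in the same way: 15 of 15 had negative values with age in ISC, with a median of -0.60 and none called. Of these 15, 7 had all aged libraries below all young ones, against 4.44% of all genes. The sum of the 15 was highest in young ISC 3 and lowest in aged ISC 1. T cell and intraepithelial lymphocyte markers had negative values for 9 of 10 genes, with a median of -3.33 and none called. For 5 of the 10 all aged libraries were below all young ones. These 10 markers summed to at most 22.9 CPM in an ISC library. Cd3d and Trac were at 0 in 3 and 4 of the 6 ISC libraries. The part of either marker list in the values of the 9 genes was not tested.

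Relative to AE of the same age, the level of Lct in ISC was 3.95% in young mice, with libraries from 2.54% to 5.26%, and 0.876% in aged mice, with libraries from 0.232% to 1.23%. For Ace the mean was 4.09% in young and 1.13% in aged mice, and for Treh 4.60% and 1.20%. For Mgam it was 15.5% and 13.4%, with aged libraries from 5.84% to 20.5%. For Dpp4 it was 12.2% (10.4% to 14.2%) in young and 7.90% (6.48% to 8.71%) in aged mice. The enterocyte markers Vil1 and Apoc3 spanned a similar range, Vil1 with 14.4% and 9.35% and Apoc3 with 4.82% and 0.940%.

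**Figure D3:**
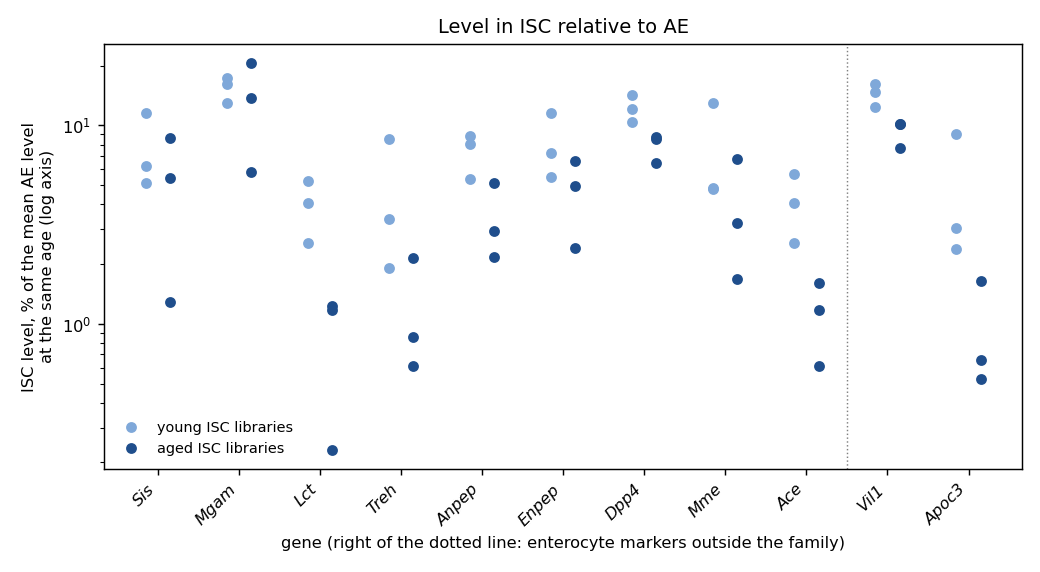
Level in each ISC library as a percent of the mean AE level of the same age, on a log axis, for the 9 genes and, right of the dotted line, the enterocyte markers Vil1 and Apoc3. Mgam has mean values of 15.5% in young and 13.4% in aged ISC, and Lct of 3.95% and 0.876%. Young and aged libraries are apart for Lct, Anpep, Dpp4 and Ace and for the markers Vil1 and Apoc3. They overlap for Sis, Mgam, Treh, Mme and Enpep. The mean AE level that each value is divided by is higher in aged mice for all 9 genes.

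In AE, all 9 genes had a higher fitted level in aged than in young mice, by 0.21 to 0.61 on the log2 scale, and none passed the test. edgeR called 0% of 16265 genes, and Socs3 had the lowest FDR, 0.220. DESeq2 called 17 genes and none of the 9. The median over the 9 genes was 0.28 and that of all genes -0.04. At an unadjusted P under 0.05 there was 1 of the 9 genes, Ace, against 4.97% of all genes, and Ace and Dpp4 had all aged libraries above all young ones, against 4.01% of all genes. Ace differed most, with 2391, 3231 and 3537 CPM in young and 4701, 5260 and 3883 CPM in aged AE, a log2 fold change of 0.61 ± 0.23 with an interval from 0.08 to 1.14 (edgeR FDR 0.833). For Dpp4 the log2 fold change was 0.26 ± 0.18, and its interval, from -0.15 to 0.68, included 0. With libraries scaled by their totals alone Dpp4 overlapped between the ages in AE too, at 864 to 1113 in young and 1052 to 1123 in aged AE per 1000000 counts, while Ace was still apart.

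Summed, the 9 genes had 27675, 39426 and 29581 CPM in young AE and 39086, 41498 and 39676 CPM in aged AE. Young AE 2 was thus within the aged range. The spread of Sis was 37.5% of its mean in young AE and 0.776% in aged AE, and that of Mgam 52.1% and 21.0%. All 15 enterocyte markers also had positive values with age in AE, none called. Of them, 2 had all aged libraries above all young ones, against 4.01% of all genes. Regional markers were not even between the groups. The 4 distal small intestine markers summed to 591 to 880 CPM in young AE and to 1119 to 1271 CPM in aged AE, and the 4 proximal ones to 389 to 796 and 438 to 853 CPM. Several disaccharidases and peptidases are known to vary along the length of the small intestine, and the part of region in these values was not tested. Among markers of crypt cells, 8 of 8 proliferation markers had negative values with age in AE (median log2 fold change -1.42). So had 8 of 10 stem cell markers (median -1.14), and none was called. Young AE 2 was the highest AE library, with 667 CPM of stem cell markers and 377 CPM of proliferation markers. Young AE 1 had 241 and 131 CPM and young AE 3 had 135 and 85.1 CPM. In aged AE these sums were 152 to 233 CPM and 99.0 to 106 CPM, inside the young range. The part of these crypt markers in the values of the 9 genes was not tested.

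**Figure D4:**
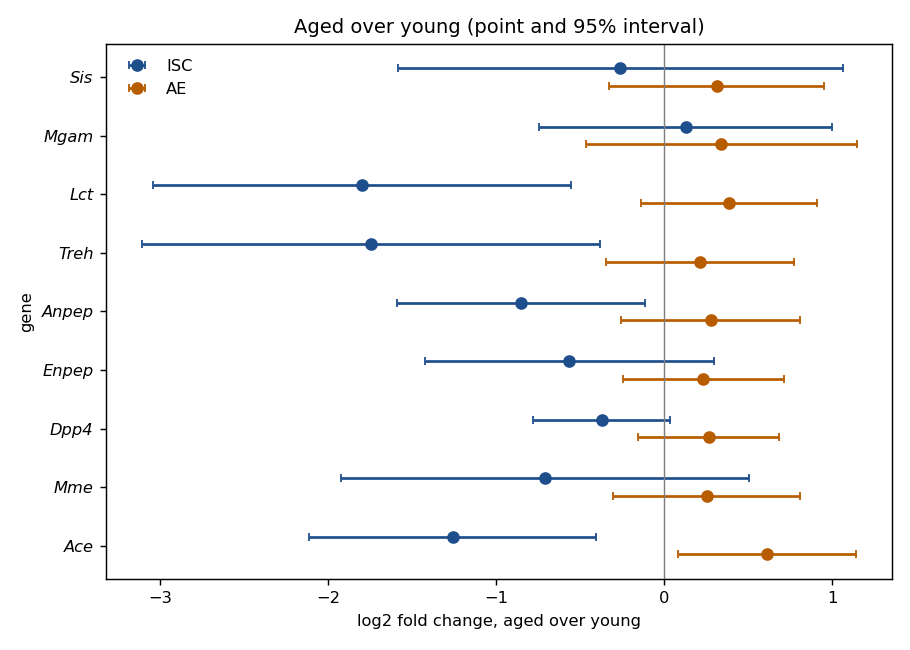
Log2 fold change of aged over young for the 9 genes from edgeR, in ISC and in AE (3 against 3 libraries each), as points with 95% intervals. The ISC values lie below 0 except for Mgam at 0.13, the AE values lie between 0.21 and 0.61, and no gene passed an FDR of 0.05 in either cell type.

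The 2 comparisons by age pointed in opposite directions for 8 of the 9 genes, and the difference was tested with an interaction over all 12 libraries. The same libraries enter this test and the comparisons above. None of the 9 genes passed it, and edgeR called 1 of 17377 genes, or 0.00575%, which was Adora2b at an FDR of 0.0281. At an unadjusted P under 0.05 there were 5 of the 9 genes, against 4.36% of all genes. The value for Ace, the age effect in AE less that in ISC, was 1.86 ± 0.50 on the log2 scale with an interval from 0.78 to 2.94 (edgeR FDR 0.797). DESeq2 gave Ace 1.90 with an FDR of 0.0471, the single call among the 9, and over all alternatives the FDR of Ace lay between 0.0471 and 1.00. Lct was at 2.18 ± 0.67, Treh at 1.94 ± 0.72, Anpep at 1.12 ± 0.47 and Dpp4 at 0.63 ± 0.27. The median over the 9 genes was 0.96 and that over all genes -0.09. It was 0.51 without young ISC 3, 0.60 without aged ISC 1 and 1.54 without aged ISC 3, and Treh was at 1.14 without young ISC 3 and 2.64 without aged ISC 3, Mme at 0.31 and 1.62, and Sis, at 0.57 over all libraries, at 1.18 without aged ISC 3. With the shared library number as a replicate block, which the pairing of libraries allows, 21 genes were called over the whole table and none of the 9, and Ace was at 1.90 with an FDR of 0.183. The AE level of Ace over its ISC level was 19.2, 41.6 and 20.5-fold at the young numbers 1, 2 and 3 and 166, 71.4 and 72.1-fold at the aged numbers 1, 3 and 5.

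Within a cell type, the 9 genes varied together in ISC and less uniformly in AE. The deviations of log2 CPM from the group means were positively correlated in 36 of 36 pairs of genes over the 6 ISC libraries. The median was 0.87, and the range ran from 0.35 for the disaccharidase genes Mgam and Treh to 0.99 for Enpep and Ace. Over the 6 AE libraries 27 of 36 were positive, and the range ran from -0.96 for Treh and Anpep to 0.90 for Lct and Dpp4. These are descriptions over few libraries that share depth and the means they are centred on. In young AE 3, Treh was the highest and Anpep the lowest of the young AE libraries, at 1482 and 7972 CPM, and in young AE 2 it was the other way round, at 771 and 12452 CPM.

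**Figure D5:**
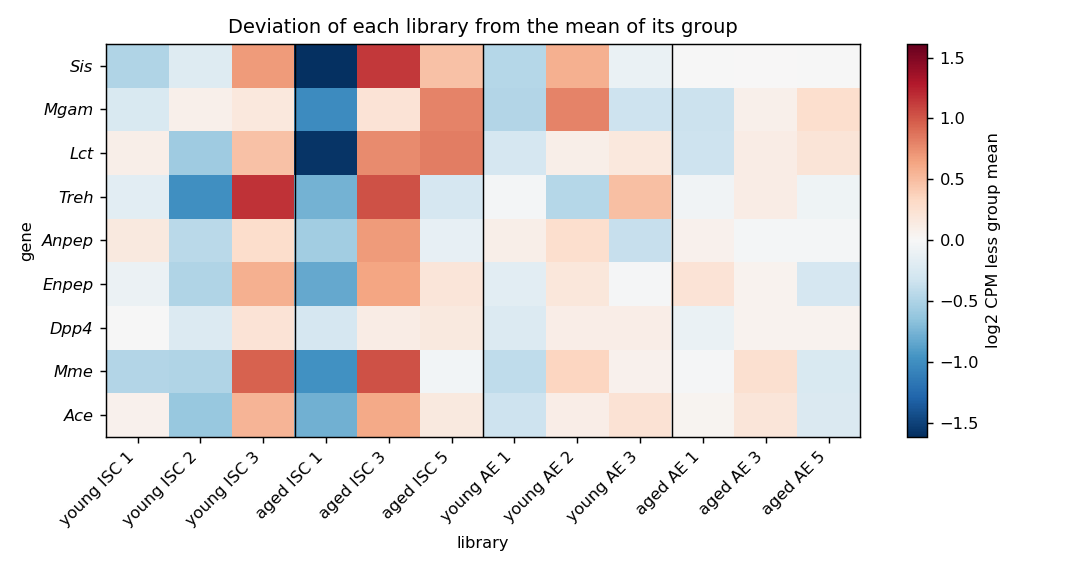
Log2 CPM of each of the 9 genes (rows) in each of the 12 libraries (columns) less the mean of the library's own group of 3, as colours from blue for below to red for above the mean. Aged ISC 1 is blue and young ISC 3 is red for all 9 genes, and the AE columns are mixed.

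Among the genes whose deviations over the 12 libraries were most like the mean of the 9, out of 9385 other genes with a mean of at least 10 CPM, were Clic5 with a Pearson coefficient of 0.99, Cyp2b10 with 0.98, Slc15a1 with 0.98 and Nat8 with 0.97. Clic5 encodes a chloride channel protein tied to the actin of microvilli, Cyp2b10 a cytochrome P450 and Nat8 an acetyltransferase. Against the same mean, of which they are part, the 9 genes themselves lay between 0.68 for Mgam and 0.96 for Enpep.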

How the data were processed

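RNA-seq of 3 libraries in each of 4 groups was used. Per the methods and processing notes, reads of 50 bp from poly(A) libraries made with a directional kit were trimmed with Trim Galore 0.4.4 and mapped to GRCm38 with HISAT2 2.1.0, and uniquely mapped reads were counted by the authors in SeqMonk over the exons of merged transcripts. These deposited counts are raw. The annotation release and strand setting are not given in the sources used here. Of 34245 rows, 13620 had no counts. The library code conflicts with the other words of the title in 8 of 12 samples, so each column was given the group that its own name spells. The second deposited file, log2 values and -log10 FDR of the genes the authors called, was not used.

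Genes with at least 10 counts in a comparison were fitted with edgeR 4.0.16 (R 4.3.3) by quasi-likelihood, TMM scaling and Benjamini-Hochberg adjustment, with a threshold of 0.05. Each comparison used its own groups, and the difference of age effects used all 12 libraries. SE were taken from the log2 fold change and its F statistic. RPKM used CPM and the merged exon length of GENCODE M21, whose coordinates equal those of the count table for all 9 genes. P-values measure the spread between libraries, since the mouse behind each is not given, although 3 mice of each age are listed for RNA-seq. Libraries sharing a number in their column codes deviated together over genes, with correlations from 0.25 to 0.51 in 6 of 6 pairs. In the 12 other pairs the correlations ran from -0.49 to 0.22. The number was therefore taken as a pairing, but only in the replicate block and in the folds given by number. The main fits held no block, so their SE and FDR are unpaired. Phldb1 lies opposite Treh and had 8483 counts in all, and Gm44974 lies on the strand of Anpep with 1480, and reads of such overlaps could be shared.

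All 9 genes were named. Of each pathway list, the 3 genes with the highest mean CPM and any gene called by age were named, and of marker lists the 2 highest, Lgr5, Olfm4 and Vil1, where a result turned on them. Apoc3, Slc1a1, Galk1, Hnf4g, Prdm1, Klf4, the markers given at 0 counts and the gene of lowest FDR by age were named beyond this rule, after their values were seen. Some genes that these rules select are not reported here. The members and lists were chosen with earlier results of these data known. Mgam2, Cltrn and Anpepl1 had no row under these names. Alternatives were DESeq2 1.42.0, RLE scaling, other filters, 1 fit over all groups, a replicate block, leaving out each library and, added after seeing the data, scaling by library totals alone. The fits were also run on simulated counts, drawn independently for each gene and library, to check that set fold changes were recovered in the median. Such counts hold no shift shared by the genes of a library, so they do not measure the error rates of the fits here.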

Additional observations from a re-analysis of the deposited data

Results flagged for a closer look

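Ace and Dpp4 were flagged because the libraries of the 2 ages were apart in opposite directions in the 2 cell types. For both genes every aged ISC library was below every young ISC library, and every aged AE library was above every young AE library. Of all genes tested, 4.44% were apart with aged lower in ISC and 4.01% with aged higher in AE. The share with both was not counted. For Dpp4 in ISC the gap, with both libraries close to 130 CPM, was smaller than counting error. Slc15a1, which is outside this set of enzymes, was also apart in these directions in both cell types. The difference of the age effect between AE and ISC was 1.86 ± 0.50 on the log2 scale for Ace (edgeR FDR 0.797) and 0.63 ± 0.27 for Dpp4 (edgeR FDR 1.00). In ISC, Ace was at -1.26 and Dpp4 at -0.37, and in AE at 0.61 and 0.26. Neither passed the threshold in edgeR. With libraries scaled by their totals alone Ace was still apart in both cell types, and Dpp4 overlapped in both.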

How the results depend on the processing

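AE over ISC was called for all 9 genes at both ages under every alternative that was run, DESeq2, RLE scaling, library totals alone, no filter on low counts, filterByExpr, 1 fit over all groups, the replicate block and each left-out library. By age none of the 9 was called in ISC or AE under any alternative, and in the difference of age effects DESeq2 called 1 of the 9, Ace. Counts over all genes moved. In ISC by age, where edgeR called 0, DESeq2 called 59, no filter on low counts 1, a fit on all 4 groups 1, and left-out libraries 0 to 1. In AE by age, again from 0, DESeq2 called 17, no filter 2, and left-out libraries 0 to 1. In the difference of age effects, from 1, DESeq2 called 43, library totals alone 0, the replicate block 21, and left-out libraries 0 to 3. The block, which pairs libraries of the same number, changed no call among the 9 genes. Directions turned only when a library was left out. Sis by age in ISC ranged from -0.88 to 0.20, at 0.16 without young ISC 3 and 0.20 without aged ISC 1. Mgam by age in ISC ranged from -0.32 to 0.48, the lowest without aged ISC 5. Mgam in the difference of age effects ranged from -0.15 to 0.69, at -0.15 without aged ISC 1, -0.11 without young AE 1 and -0.03 without young AE 3. The causes were not tested. With 3 libraries a group, the 95% intervals of the age effect in ISC were as wide as from -3.11 to -0.38 for Treh, while the lowest count behind any value of the 9 genes was 243.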

Other observations

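Other hydrolases of the brush border were described by age beside the 9 enzymes. In ISC, 14 of 15 tested had negative values and none was called, with a median log2 fold change of -1.41 against 0.01 over all genes, and 6 had all aged libraries below all young ones, against 4.44% of all genes. The 19 of them with a row in the count table, summed, had 492 to 1504 CPM in young ISC, the highest in young ISC 3, and 196 to 612 CPM in aged ISC, the lowest in aged ISC 1. Naaladl1 had log2 fold changes of -0.89 ± 0.47 in ISC and 0.33 ± 0.27 in AE, and Alpi at -0.94 ± 0.74 and 0.12 ± 0.27.

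Of the uptake genes, 13 of 14 had negative values with age in ISC, with a median of -0.27. In AE 12 of 14 had positive values, with a median of 0.32. Slc15a1, which takes up the short peptides that the peptidases release, had 27.8 ± 9.19 CPM in young ISC (SD, n = 3), 9.66 ± 4.30 CPM in aged ISC, and in AE it had 780 ± 203 CPM (young) and 1222 ± 136 CPM (aged), and the libraries of the 2 ages were apart in both cell types. Its difference of age effects was 2.18 ± 0.48 on the log2 scale (edgeR FDR 0.724). Slc6a19 was at -1.33 ± 0.47 in ISC and 0.46 ± 0.19 in AE, and Slc5a1 at -0.22 ± 0.29 and 0.42 ± 0.36. Among the metabolic genes, Cndp2 was at -0.89 ± 0.26 in ISC and 0.36 ± 0.19 in AE and Pepd at -0.75 ± 0.24 and 0.26 ± 0.16. The transcription factors Hnf4a, Elf3 and Cdx2 were at -0.16 ± 0.15, 0.01 ± 0.17 and 0.36 ± 0.16 in ISC. None of these was called by age.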
